A study of Mus musculus with 6 samples.

Results

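The 10 genes studied here belong to the inflammasome and the interleukin-1 (IL-1) family and were followed in RNA-seq counts of bone marrow cells: the sensor genes Nlrp3 and Nlrc4, the adaptor gene Pycard, the protease genes Casp1 and Casp4, the pore gene Gsdmd, and the cytokine genes Il1a, Il1b, Il18 and Il1rn. They were taken by gene name, and all 10 were among the 54532 genes of the deposited count table. The marrow came fresh from femurs of wild-type mice, 3 samples from mice without treatment (control) and 3 from mice kept under hindlimb unloading for 4 weeks. Unloading lifts the hind limbs so that they bear no weight, and serves as a model of disuse osteoporosis. The labels give no strain, age or sex and do not say whether a sample was 1 animal, so a p-value here reflects only how far these libraries scatter, which may be technical. Levels are CPM, a gene's reads divided by the size of its library after TMM scaling, and group values are means ± SD over 3 libraries.

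Inflammasomes are protein platforms that assemble in the cytosol when a sensor detects danger or microbial products. NLRP3 responds to many kinds of cell stress and NLRC4 to bacterial flagellin and secretion systems handed over by NAIP proteins. Through the adaptor ASC, the product of Pycard, they activate caspase-1, which matures the precursors of IL-1β and IL-18 and cuts gasdermin D, whose fragment forms pores in the cell membrane. The product of mouse Casp4, also called caspase-11, senses cytosolic lipopolysaccharide and cuts gasdermin D directly. The product of Il1rn, the IL-1 receptor antagonist, occupies the receptor without signalling. In bone, IL-1 is known as a stimulator of osteoclasts, and in marrow neutrophils and monocytes are main sources of its mRNA. Inflammasome activity itself depends on protein assembly and cleavage, which mRNA counts do not measure.

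Nlrp3 and Il1rn were the tested genes of the set whose 3 unloaded values all lay below the 3 control values, by about the same log2 difference. Of all tested genes, 6.4% had groups separated in that direction and 11.9% in either. Il1b, the most abundant of the set, spread as widely within each group as between them. Gsdmd, Casp1, Casp4 and Nlrc4 overlapped between the groups, and so did Pycard and Il18. By edgeR's quasi-likelihood test with Benjamini-Hochberg adjustment, 0 of the 9 tested genes of the set passed, as did 0 of all 15015 genes tested (0.0%). The differences given for single genes are therefore values and not called changes. In whole marrow, fewer cells of a type and less RNA per cell cannot be told apart.

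The libraries held 15850986 to 17775506 counts. The unloaded 1 library stood apart from the other 5, with a score of 51.3 on the leading principal component against -13.7 to -7.37, and its mitochondrial transcripts were 0.439% of counts against 1.05% to 1.27%. All marker genes of 10 marrow cell lists had counts in every library. Summed over each list, 10 neutrophil genes stood at 52660 to 60620 CPM in controls and 49360 to 60760 after unloading, 7 erythroid genes at 3973 to 4765 and 4883 to 6484, and 7 B cell genes at 655.5 to 759.7 and 489.2 to 675.2.

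Start-site windows are shown for the pair of genes with separated groups and for Il1b, the most abundant. Each runs from 250 bases before the RefSeq start site to 50 bases from it onward (GRCm38.p6), 5′ to 3′ on the gene's strand, with matches to the motifs named next in capitals. Nlrp3 is read from chr11:59541319-59541618 (+), Il1rn from chr2:24336610-24336909 (+) and Il1b from chr2:129371090-129371389 (-).
Nlrp3: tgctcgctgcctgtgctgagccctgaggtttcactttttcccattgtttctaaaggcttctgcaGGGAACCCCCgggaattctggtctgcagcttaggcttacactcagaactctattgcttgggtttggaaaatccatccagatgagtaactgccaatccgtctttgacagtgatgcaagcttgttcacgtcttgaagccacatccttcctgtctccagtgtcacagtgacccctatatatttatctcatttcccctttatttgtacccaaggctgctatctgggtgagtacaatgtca
Il1rn: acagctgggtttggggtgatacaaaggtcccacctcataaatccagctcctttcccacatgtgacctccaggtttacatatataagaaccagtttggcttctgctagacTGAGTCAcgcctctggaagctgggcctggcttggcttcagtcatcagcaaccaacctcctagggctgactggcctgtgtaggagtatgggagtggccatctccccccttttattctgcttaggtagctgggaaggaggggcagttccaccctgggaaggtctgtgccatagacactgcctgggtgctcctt
Il1b: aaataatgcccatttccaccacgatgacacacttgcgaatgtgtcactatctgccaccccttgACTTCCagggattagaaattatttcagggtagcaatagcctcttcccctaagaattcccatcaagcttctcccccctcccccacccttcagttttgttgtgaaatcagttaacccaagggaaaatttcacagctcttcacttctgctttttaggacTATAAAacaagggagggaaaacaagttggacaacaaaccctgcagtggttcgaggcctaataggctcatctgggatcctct

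Of the set, 9 genes had such a window, and where several starts were listed the window nearest the gene start of the count table was used. Both strands were searched for the NF-kB consensus, the AP-1 motif TGANTCA, the C/EBP motif TTGCNNAA, the ETS-type motif GGAAGT, as bound by PU.1 and its relatives, and TATAAA. The capitals in Nlrp3 mark an NF-kB match from 186 to 177 bases before the start, read on both strands. An NF-kB match is held by 8.46% of all 32851 windows in the table. The capitals in Il1rn mark an AP-1 match from 141 to 135 bases before the start, a motif in 7.81% of windows. Il1b has TATAAA from 31 to 26 bases before its start (13.6% of windows) and GGAAGT on the other strand from 187 to 182 bases before (23.8%). Of the remaining windows, that of Casp4 held NF-kB matches in 2 places, an overlapping group from 93 to 83 bases before the start and another from 39 to 30, the latter overlapping a GGAAGT. Il1a had TATAAA from 32 to 27 and TGANTCA from 12 to 6 bases before its start. Nlrc4 and Pycard each held a TTGCNNAA, a motif in 10.8% of windows, besides GGAAGT, while Il18 held TATAAA alone and Casp1 none of the 5. These are matches of letters in short windows and say nothing about binding.

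Levels within the set were compared per kilobase of the deposited gene length. In controls Il1b stood at 134 ± 25.1 CPM per kilobase (SD, n = 3), followed by Gsdmd at 46.9 ± 3.32, Casp1 at 22.6 ± 1.96 and Nlrp3 at 18.7 ± 1.56. Il1rn was at 10.8 ± 0.57, Pycard at 9.25 ± 0.483, Casp4 at 5.52 ± 0.329, Nlrc4 at 3.51 ± 0.574 and Il18 at 2.7 ± 0.362 CPM per kilobase. Il1a was lowest at 0.178 ± 0.058 CPM per kilobase. The control ranges of neighbours in this order overlapped for Nlrc4 and Il18 alone. The order depends on the length used. With the principal transcript of GENCODE M21 in its place, Il1rn moved up the order to 24.1 CPM per kilobase, overlapping Casp1, and Casp4 passed Pycard at 14.3, while Il1b and Gsdmd stayed the top pair and Il1a the lowest.

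**Figure D1:**
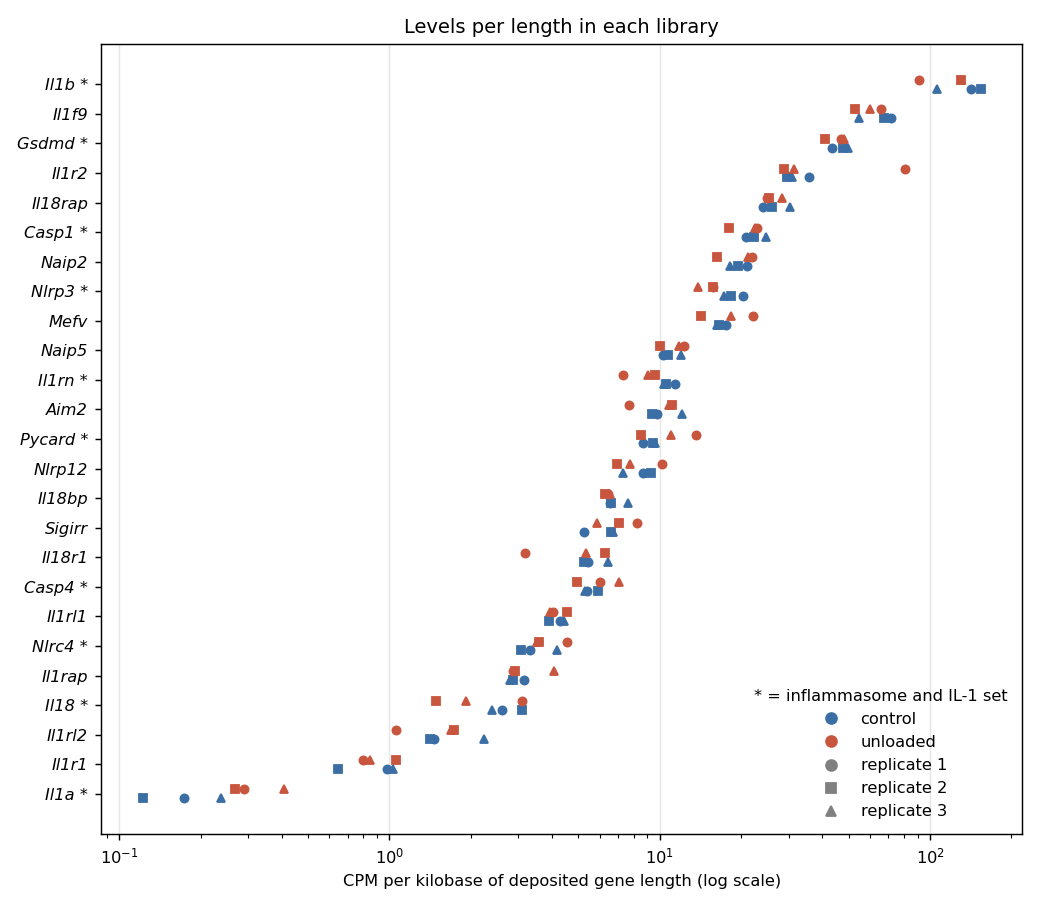
Levels in CPM per kilobase of deposited gene length (log axis) in each of the 6 libraries, for the 10 genes of the set (asterisk) and related receptors and sensors, ordered by control mean. Blue marks controls and red unloaded marrow, and the marker shape gives the replicate number. Il1b lies highest, Il1a lowest, and Il1r2 in unloaded 1 is far to the right of its other 5 values.

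The sensor gene Nlrp3 (ENSMUSG00000032691, mm10 chromosome 11, 59541568 to 59566956, plus strand) stood at 82.5, 74.8 and 70.0 CPM in controls 1 to 3 and at 63.8, 63.6 and 56.1 CPM in unloaded 1 to 3. Every unloaded value was below every control value, with unloaded 3 the lowest library. The group levels were 75.8 ± 6.32 and 61.2 ± 4.39 CPM (SD, n = 3). This was -0.31 ± 0.11 (SE) as a log2 fold change, with an unadjusted edgeR p of 0.0172 and an adjusted p of 0.801. The log2 fold change was -0.34 without unloaded 1, and it ran from -0.36 to -0.24 with each library left out in turn. Nlrp3 is transcribed at low levels in resting cells and is induced through NF-kB.

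Nlrc4 (ENSMUSG00000039193, chromosome 17, 74425438 to 74459142, minus strand), the sensor partner of the NAIP proteins, stood at 15.6, 14.5 and 19.7 CPM in controls and 21.5, 16.9 and 16.6 CPM after unloading. The groups overlapped, and unloaded 1 was the highest library. Its log2 fold change of 0.14 ± 0.17 (edgeR adjusted p = 0.93) was 0.01 without unloaded 1.

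Pycard (ENSMUSG00000030793, chromosome 7, 127989708 to 127993867, minus strand), the adaptor gene, was even among controls at 33.1, 35.9 and 36.5 CPM and scattered after unloading at 51.9, 32.5 and 41.7 CPM. Unloaded 1 was again the highest library and unloaded 2 the lowest of all 6. The log2 fold change was 0.26 ± 0.16 (edgeR adjusted p = 0.896), or 0.08 without unloaded 1 and 0.41 without unloaded 2. An unstranded count cannot separate Pycard from Gm45205, a transcript on the other strand that shares 485 exonic bases and had 0 to 13 counts per library.

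Casp1 (ENSMUSG00000025888, chromosome 9, 5298517 to 5307265, plus strand), which encodes the protease that matures IL-1β and IL-18, stood at 31.1, 33.3 and 36.9 CPM in controls and 34.4, 27.0 and 33.6 CPM after unloading. Unloaded 2 was the lowest library, and unloaded 1 and 3 lay within the control range. The log2 fold change was -0.09 ± 0.13 (edgeR adjusted p = 0.942), and 0.01 without unloaded 2.

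Casp4 (ENSMUSG00000033538, chromosome 9, 5308828 to 5336783, plus strand) begins just downstream of Casp1 on the same strand. It stood at 19.96, 21.9 and 19.6 CPM in controls and 22.2, 18.3 and 26.1 CPM after unloading. The unloaded values ran from below the lowest control to above the highest, with unloaded 3 at the top. The log2 fold change was 0.12 ± 0.15 (edgeR adjusted p = 0.936), or -0.02 without unloaded 3.

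Gsdmd (ENSMUSG00000022575, chromosome 15, 75862327 to 75867408, plus strand), the gene of the pore-forming substrate, was the steadiest of the set. Its values were 102.8, 113.4 and 118.2 CPM in controls and 111.8, 97.4 and 114.5 CPM after unloading. The highest library was 1.21 times the lowest, against 1.37 to 3.33 times for the other 9 genes. Its log2 fold change was -0.05 ± 0.11 (edgeR adjusted p = 0.966), and 0.02 without unloaded 2.

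**Figure D2:**
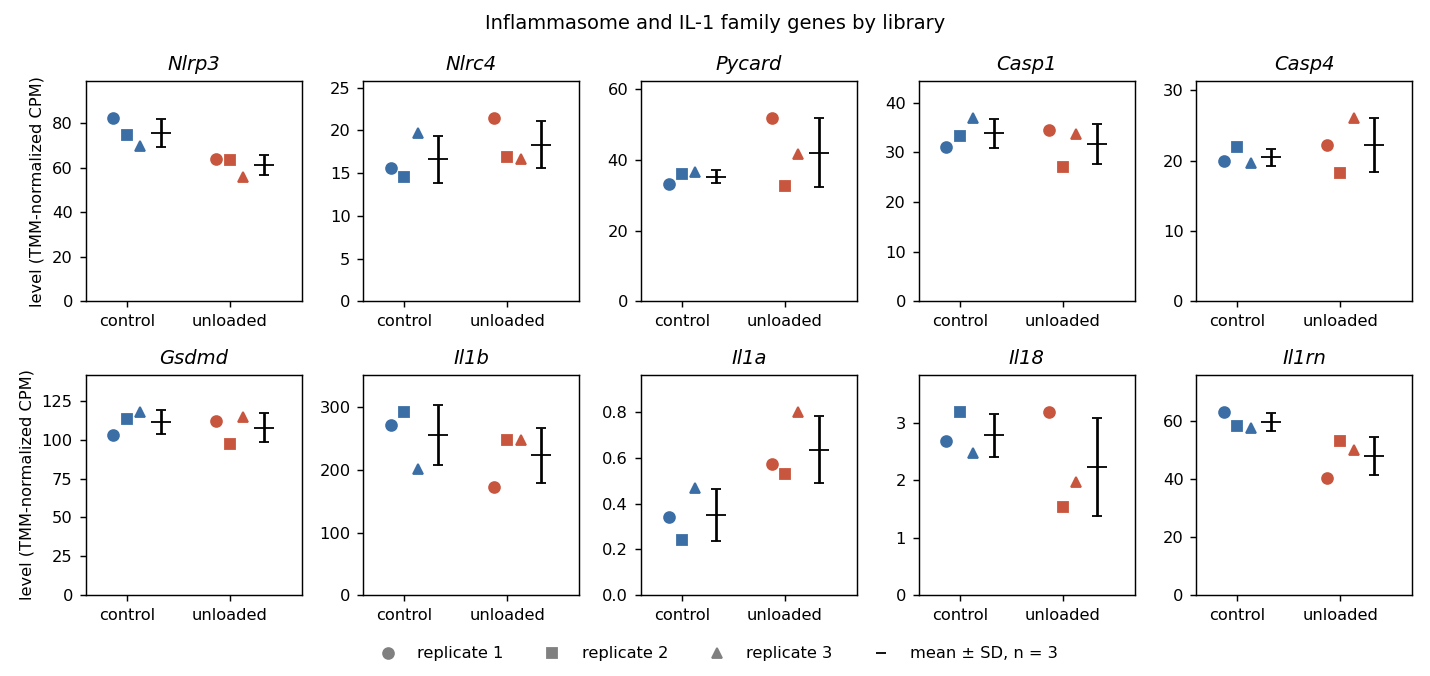
Level of each gene in each library, in TMM-normalized CPM on axes that start at 0, for controls (blue) and unloaded marrow (red). Marker shape gives the replicate number and the black bar the mean ± SD of 3 libraries. Nlrp3 and Il1rn have all red points below the blue ones, Il1a has them above at under 1 CPM, and the other genes overlap.

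Il1b (ENSMUSG00000027398, chromosome 2, 129364570 to 129371139, minus strand), the gene of the main circulating IL-1 cytokine, stood at 271, 293 and 202 CPM in controls and at 173, 248 and 248 CPM after unloading. Unloaded 1 was the lowest library and control 3 the next lowest, so that the groups overlapped. The group levels were 255 ± 47.8 and 223 ± 43.5 CPM (SD, n = 3), with a log2 fold change of -0.19 ± 0.17 (SE; edgeR adjusted p = 0.915). That value was -0.04 without unloaded 1 and -0.34 without control 3. The antisense gene Il1bos shares 25 exonic bases with Il1b and had 19 to 26 counts per library, against at least 2714 for Il1b.

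Il1a (ENSMUSG00000027399, chromosome 2, 129299610 to 129309972, minus strand), which lies beside Il1b on the same strand and encodes IL-1α, was too low for the filter on low counts and was not tested. It had 6, 4 and 8 counts in controls and 9, 9 and 13 after unloading. The unloaded counts lay above the control counts, 31 against 18 in all. In the fit with no filter on low counts, its log2 fold change was 0.83 ± 0.68 with an unadjusted edgeR p of 0.219. Gm14023, on the other strand, shares 222 exonic bases with Il1a and had 5 to 24 counts per library, so even these few reads are uncertain.

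Il18 (ENSMUSG00000039217, chromosome 9, 50554827 to 50581840, plus strand) was also scarce, at 2.69, 3.19 and 2.47 CPM in controls and 3.19, 1.53 and 1.98 CPM after unloading. Unloaded 1 matched the highest control, while unloaded 2 and 3 were the lowest libraries. The log2 fold change was -0.32 ± 0.32 (edgeR adjusted p = 0.924) with all libraries and -0.66 (adjusted p = 0.567) without unloaded 1. Those values came from 26 to 53 counts per library.

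Il1rn (ENSMUSG00000026981, chromosome 2, 24336853 to 24351494, plus strand), the antagonist gene, stood at 63.2, 58.2 and 57.4 CPM in controls and 40.4, 53.1 and 50.1 CPM after unloading. All 3 unloaded values were below the controls, with unloaded 1 lowest. The group levels were 59.6 ± 3.15 and 47.9 ± 6.66 CPM (SD, n = 3). The log2 fold change was -0.32 ± 0.12 (SE), with an unadjusted edgeR p of 0.0268 and an adjusted p of 0.804. Without unloaded 1 it was -0.21 (adjusted p = 0.528). Counts per gene do not separate the secreted antagonist from its intracellular forms.

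Il1b and its antagonist were both lowest in unloaded 1. Per length, Il1b exceeded Il1rn by 12.4, 14.6 and 10.2 times in controls and by 12.4, 13.6 and 14.4 times after unloading. With principal transcript lengths the ratios were 7.82, 9.19 and 6.41 in controls and 7.81, 8.52 and 9.04 after unloading. By either length, the unloaded ratios lay within the control range.

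Of the 9 tested genes, 2 had an unadjusted edgeR p under 0.05, both lower, where 5.85% of all tested genes had such a p in either direction and 3.18% in the lower direction. The same 2 genes, Nlrp3 and Il1rn, had groups that did not overlap, as did 11.9% of all tested genes, 6.4% with unloaded lower and 5.46% with unloaded higher. Each of these counts over the set is of 2 genes. Negative fold changes were found for 6 of the 9, with a median of -0.09 (-0.15 without control 1), against 48.8% negative and a median of 0.01 over all tested genes. The same pair had an unadjusted p under 0.05 in DESeq2 (5.28% of all genes), in limma-voom (5.8%) and in edgeR with no filter on low counts (5.91%) or without unloaded 1 (8.98%). The pair also did with control 3 left out (4.65%). With control 1 left out no gene of the set did (3.1% of all genes), with control 2 left out only Nlrp3 did (4.43%), and with unloaded 3 left out only Il1rn did (7.01%). With unloaded 2 left out (7.19%) Pycard joined the pair in the opposite direction, at a log2 fold change of 0.41 and an unadjusted edgeR p of 0.0152. No gene of the set passed the adjusted threshold in DESeq2, where 0.253% of all genes did, in edgeR with no filter (0.671%) or without unloaded 1 (0.0324%).

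Nlrp3 and Il1rn stayed separated with each library left out. That outcome was fixed in advance apart from slight rescaling, since dropping a library cannot make separated groups overlap. The pair were the only separated genes of the set without control 1 (17.7% of all tested genes separated), without control 2 (20.8%) and without unloaded 3 (23.4%). Without control 3, Il1b became separated below and Nlrc4 above, when 21.2% of all tested genes were separated. Without unloaded 1, Il18 was separated below, when 26.1% were. Without unloaded 2, Pycard and Casp4 were separated above, when 23.2% were.

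**Figure D3:**
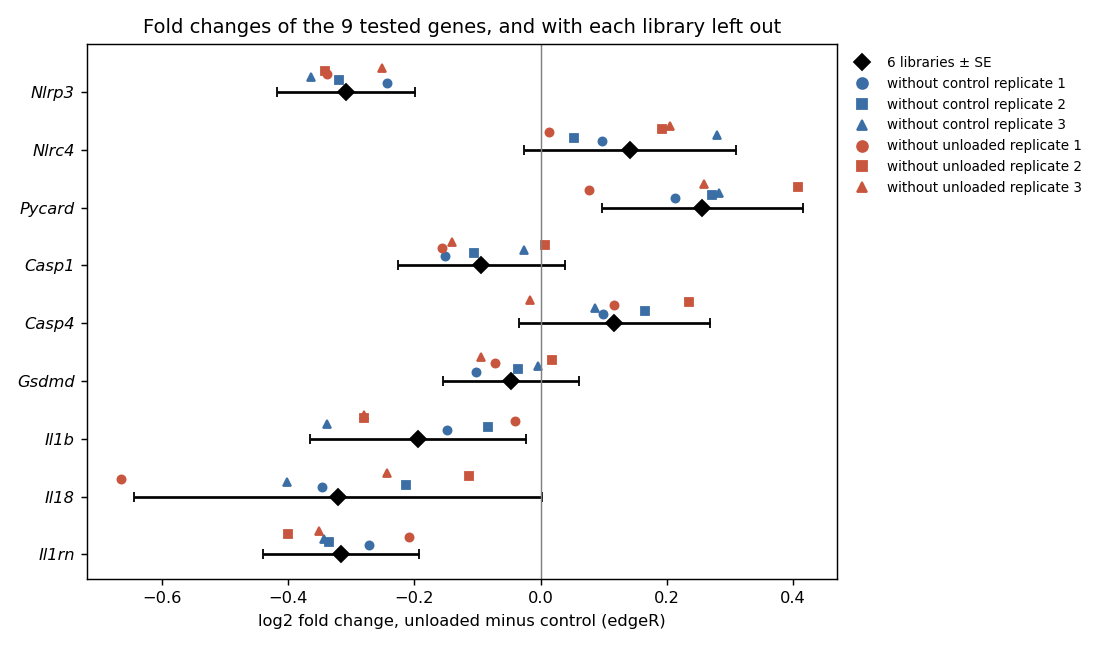
Log2 fold change (unloaded minus control, edgeR) of the 9 tested genes with all 6 libraries (black diamond, ± SE) and with each library left out (colored symbols). The symbols of Nlrp3 and Il1rn stay left of 0, at -0.36 to -0.24 and -0.40 to -0.21, while those of Casp1, Casp4 and Gsdmd fall on both sides. Since the groups of Nlrp3 and Il1rn do not overlap, their sign could not turn and only the size could vary.

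Values of Nlrp3 and Il1rn were read beside markers of the cells that make them. Among the 10 neutrophil markers summed above, 8 had negative fold changes and 2 positive. Ly6g stood at 204, 217 and 208 CPM in controls and 139, 139 and 196 after unloading. Its log2 fold change was -0.40 (edgeR adjusted p = 0.801), or -0.32 without unloaded 1. It was the 1 separated gene of those 10, where 11.9% of all tested genes were separated. Among 9 mature neutrophil markers, 6 had negative fold changes, with summed levels of 7463 to 7637 CPM in controls and 6755 to 7261 after unloading. Mmp9, the most abundant of them, stood at 3242, 3031 and 3039 CPM in controls and 2109, 2649 and 2779 after unloading. Stfa2l1 was separated in the opposite direction, at 17.6, 30.0 and 31.8 CPM in controls and 34.7, 52.1 and 45.4 after unloading. The groups of the rest of that list overlapped. Among 10 monocyte markers, 5 were negative, with sums of 3247 to 3733 and 3122 to 3807 CPM. Within that list Cx3cr1, the fractalkine receptor gene of monocytes, had separated groups, at 60.6, 59.4 and 57.8 CPM in controls and 35.5, 41.0 and 35.3 CPM after unloading. Its log2 fold change of -0.67 had an adjusted p of 0.288 by edgeR and of 0.000899 by DESeq2. Klf4 had separated groups as well (-0.61, or -0.38 without unloaded 1), while Ccr2 and F13a1 had positive values (0.36 and 0.36) with overlapping groups. Ly6g, Mmp9, Stfa2l1, Cx3cr1, Klf4, Ccr2 and F13a1 were named after their values were seen. Among 10 macrophage markers, 6 were negative, with sums of 310.4 to 365.1 and 299.0 to 397.0 CPM. No gene of these lists was at 0 in all libraries. The mature neutrophil sums, to which Mmp9 gave the most, did not overlap between the groups. Their part and those of Ly6g and Cx3cr1 in the values of Nlrp3 and Il1rn were not tested.

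Marker sums of 5 other classes also did not overlap, the erythroid sums given above among them. No share over all genes was taken for such sums, while 11.9% of single tested genes had separated groups. A sum mostly follows its most abundant genes, so it need not describe a whole class. Those genes were Hbb-bs and Hba-a1 for erythroid cells and Prss34 for mast cells and basophils, named after their values were seen. For megakaryocytes all 6 genes had values below 0 (median log2 fold change -0.90), with sums of at most 86.6 CPM after unloading against at most 104.1 in controls. Sums were lower after unloading for mast cells and basophils (7 genes; 555.2 to 567.3 in controls and 409.1, 535.8 and 476.8 in unloaded 1 to 3) and for dendritic cells (9 genes; 199.9 to 216.3 and 158.4 to 195.5). Sums were higher for T and NK cells (9 genes; 123.1 to 148.2 and 152.6 to 175.4 CPM).

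The genes with the library profile most like a given gene were sought among 11566 protein-coding genes of at least 1 CPM, by the root-mean-square difference of log2 CPM after each gene's own mean was removed. For Nlrp3 these were Nfkbie (0.0348), which encodes an inhibitor of NF-kB, Syvn1 (0.0416) and Syn1 (0.0418). For Il1rn they were Prex1 (0.0226), Erbin (0.0276) and Nfic (0.0373). For Il1b they were Mettl5 (0.0737), Zfp938 (0.0755) and Akip1 (0.0871), a looser likeness. These distances describe 6 libraries and come from a search over many genes.

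The receptors of the IL-1 family were all expressed, and none of the 9 passed edgeR's test. Signalling runs through Il1r1 with its partner Il1rap, while the product of Il1r2 is a decoy that binds IL-1 without signalling. Il1r1 was low at 6.23, 4.10 and 6.58 CPM in controls and 5.10, 6.72 and 5.37 CPM after unloading (log2 fold change 0.02 ± 0.24). The decoy gene Il1r2 stood at 68.1, 56.3 and 59.0 CPM in controls and 154, 55.0 and 59.9 CPM after unloading, so that the unloaded 1 library alone was high. Its log2 fold change of 0.55 ± 0.32 (edgeR adjusted p = 0.89) became -0.09 without that library. Per length, Il1r2 exceeded Il1r1 by 29.9 to 45.8 times in controls, by 101 times in unloaded 1, and by 27.3 and 37.2 times in unloaded 2 and 3.

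Il1rap averaged 33.3 ± 2.1 CPM over controls and 37.3 ± 7.72 over unloaded libraries (SD, n = 3; log2 fold change 0.16 ± 0.15), with unloaded 3 the highest library at 46.2. The inhibitory receptor gene Sigirr was at 18.8 ± 2.5 and 21.5 ± 3.54 CPM (0.19 ± 0.16, or 0.07 without unloaded 1). Il1rl1, the IL-33 receptor gene of mast cells, basophils and type 2 lymphocytes, had means of 28.9 ± 1.89 and 28.7 ± 2.3 CPM (-0.01 ± 0.12). Il1rl2, the IL-36 receptor gene, was at 11.6 ± 3.18 and 10.2 ± 2.58 CPM (-0.19 ± 0.24). All of these groups overlapped.

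For IL-18, the signalling partner gene Il18rap averaged 181 ± 21.03 CPM over controls and 177 ± 12.1 over unloaded libraries (SD, n = 3; log2 fold change -0.03 ± 0.11). The binding chain gene Il18r1 was at 26.1, 25.3 and 31.1 CPM in controls and 15.2, 30.1 and 25.8 CPM after unloading, lowest in unloaded 1 (-0.21 ± 0.21, or 0.02 without that library). Per length, Il18rap exceeded Il18r1 by 4.46 to 4.98 times in controls, by 7.92 times in unloaded 1, and by 4.07 and 5.29 times in unloaded 2 and 3. Il18bp, which encodes a soluble inhibitor of IL-18, was at 20.96 ± 1.84 and 19.4 ± 0.393 CPM (-0.11 ± 0.13). Per length it exceeded Il18 in every library, with Il18 at 0.314 to 0.469 of its level in controls and 0.236 to 0.481 after unloading. With principal transcript lengths these shares were 0.198 to 0.296 and 0.149 to 0.304.

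Among the remaining ligand genes, Il1f9, the gene of IL-36γ, was at 118, 112 and 90.1 CPM in controls and 109, 87.1 and 98.7 CPM after unloading (log2 fold change -0.12 ± 0.13, overlapping). Per length it stood at 64.6 ± 8.77 CPM per kilobase in controls, below Il1b and above Gsdmd. Il33 was too low to test, at 0 to 1.02 CPM. It had 9, 17 and 5 counts in controls and 0, 3 and 5 after unloading, with overlapping groups. Il1f5 had 1 count in all. Il1f6, Il1f8 and Il1f10 had no count in any library, where 3 counts would be at most 0.189 CPM before TMM scaling.

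Of 14 other sensor genes, 11 were tested, with 0 called. Separated groups were found for 0 of the 11, where 11.9% of all tested genes had them. Fold changes were positive for 8 and negative for 3. Their median was 0.08, and -0.01 when unloaded 1 was left out. The 4 with the smallest p were Nlrx1, Nlrc5, Mefv and Nlrc3, all overlapping. Nlrx1, a mitochondrial regulator, stood at 71.3, 77.4 and 57.1 CPM in controls and 117, 64.5 and 81.0 CPM after unloading (log2 fold change 0.35 ± 0.20, or 0.08 without unloaded 1). Nlrc5, an activator of MHC class I genes, had 0.22 ± 0.14, or 0.10 without unloaded 1. The pyrin gene Mefv had 0.11 ± 0.15, or -0.05 without that library, and the regulator gene Nlrc3 0.15 ± 0.23, or -0.03 without control 1. The NAIP partners of NLRC4 were expressed, with Naip2 averaging 94.9 ± 7.21 CPM over controls and 95.8 ± 14.9 over unloaded libraries, and Naip5 at 57.3 ± 4.57 and 59.2 ± 6.21 (SD, n = 3). The Naip genes are close paralogs, and how the counting shared reads between them is uncertain. The DNA sensor gene Aim2 was at 36.5 ± 5.13 and 34.6 ± 6.58 CPM.

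Of 19 regulator and effector genes, 18 were tested, with 0 called, 8 negative and 10 positive fold changes and a median of 0.06. Txnip, Ninj1 and Card19 had unloaded values below all controls and Sugt1 had them above. These were 3 lower and 1 higher of 18, where 11.9% of all tested genes were separated in either direction. Txnip, whose product binds thioredoxin and has been linked to NLRP3 activation, stood at 392, 368 and 406 CPM in controls and 302, 312 and 334 CPM after unloading. Its log2 fold change was -0.30 ± 0.10, with an unadjusted edgeR p of 0.0132 and an adjusted p of 0.801. Ninj1, which acts after gasdermin D to rupture the membrane, stood at 63.6, 67.2 and 77.9 CPM in controls and 60.4, 55.6 and 46.7 CPM after unloading (-0.36 ± 0.13; adjusted p = 0.801). Card19 had -0.34 ± 0.13, or -0.22 without unloaded 1, and the chaperone partner gene Sugt1, whose product is needed for NLR stability, 0.11 ± 0.10. Ptges3, with 0.19 ± 0.12, overlapped.

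Of 15 IL-1 receptor signalling genes, all were tested, with 0 called, 9 negative fold changes and a median of 0.00. Peli1, which encodes a ubiquitin ligase of the IRAK complex, stood at 68.1, 65.1 and 62.8 CPM in controls and 55.9, 58.6 and 53.9 CPM after unloading. Its log2 fold change was -0.22 ± 0.10, with an unadjusted edgeR p of 0.0503 and an adjusted p of 0.847. Irak2, a kinase gene of the same complex, stood at 49.8, 46.5 and 49.2 CPM in controls and 43.3, 44.7 and 41.5 CPM after unloading (-0.17 ± 0.10). Peli1 and Irak2 were the 2 of 15 with separated groups, where 11.9% of all tested genes had them. Ikbkb (0.22 ± 0.15, or 0.00 without unloaded 1) and Map3k7 (-0.11 ± 0.11, or -0.03 without it) overlapped. The adaptor gene Myd88 was between 87.6 and 119.7 CPM in all libraries.

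Of 18 genes that NF-kB is known to induce, 17 were tested, with 0 called, 10 negative fold changes and a median of -0.05. Tnf stood at 32.1, 32.2 and 30.3 CPM in controls and 15.9, 26.5 and 25.5 CPM after unloading, lowest in unloaded 1 (log2 fold change -0.48 ± 0.18; edgeR adjusted p = 0.804). Without unloaded 1 its log2 fold change was -0.28. Sod2 was the other gene with separated groups, in the opposite direction (0.11 ± 0.11, or 0.04 without unloaded 3). Its highest control and lowest unloaded values nearly touched, at 46.69 and 46.71 CPM. Tnf and Sod2 made 1 lower and 1 higher of 17, where 11.9% of all tested genes were separated in either direction. Ccl3 had -0.40 ± 0.17, Ptgs2 -0.55 ± 0.30 and Tnfaip3 -0.31 ± 0.17, all overlapping. Without control 1 these were -0.23, -0.30 and -0.12, while leaving out unloaded 1 gave -0.30, -0.30 and -0.21. Ptgs2 was -0.96 when unloaded 2 was left out.

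Of 12 immediate early genes, which respond within minutes to stimulation or handling, 0 were called and 11 had values below 0. The list's median was -0.50, and -0.38 when unloaded 1 was left out, but -0.18 when control 1 was. Their summed level was 6701, 4386 and 4310 CPM in controls and 2684, 3990 and 4059 CPM after unloading, so that control 1 stood above the other controls and unloaded 1 below the other unloaded libraries. Jun (-0.60 ± 0.23), Junb (-0.51 ± 0.17) and Zfp36 (-0.34 ± 0.16) had separated groups, while Fosb (-1.02 ± 0.37) and Egr1 (-0.73 ± 0.29) overlapped. Separated groups were thus found for 3 of 12, against 11.9% of all tested genes. Without control 1 the log2 fold changes were -0.21 for Jun, -0.42 for Junb, -0.12 for Zfp36, -0.62 for Fosb and -0.22 for Egr1. Without unloaded 1 Junb was -0.33, and without unloaded 2 Fosb was -1.55. The sums did not overlap between the groups. Il1rn was likewise highest in control 1 and lowest in unloaded 1, and Nlrp3 was highest in control 1 and lowest in unloaded 3. What part the immediate early response had in those values was not tested.

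**Figure D4:**
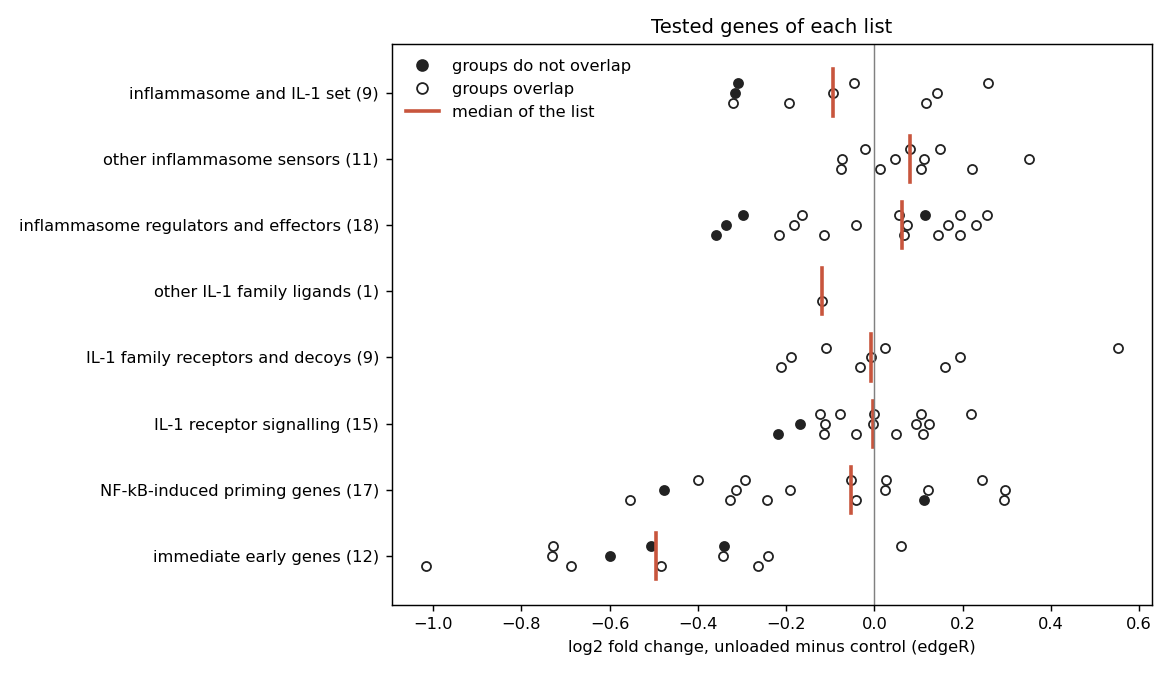
Log2 fold changes (unloaded minus control, edgeR) of the tested genes of the set and of the 7 pathway lists, without the cell type marker lists, with the number tested in parentheses. Filled points have unloaded values all beyond the control values, open points overlap, and the red line is the list's median. Among these lists, medians lie between -0.12 and 0.08 except for the immediate early genes, at -0.50.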

How the data were processed

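RNA-seq libraries were made from total RNA with the NEBNext Ultra kit, per the labels' protocols. Per the submitters' processing notes, CASAVA, HISAT2 2.0.5 and featureCounts 1.5.0-p3 were used with mm10. The annotation release, strand setting and multi-mapping rule were not given in the sources used here. The deposited table holds raw read counts per gene, not normalized by the authors, and a gene length. No molecular identifiers are named in the labels, and limits at 0 (3 counts) cover counting error only.

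Libraries were grouped by title. Genes were kept by filterByExpr (15015 of 54532), scaled by TMM and tested with edgeR 4.0.16 (glmQLFit, glmQLFTest, design of group alone) in R 4.3.3, with Benjamini-Hochberg adjustment over all tested genes and a threshold of 0.05. Standard errors are the log2 fold change over the square root of F. Log2 CPM used a prior count of 2. The fit was also run on simulated counts, with changes larger than those measured for the set. That run therefore says nothing about detecting differences as small as those of the set. Alternatives were other scalings and filters, DESeq2 1.42.0, limma-voom (limma 3.58.1), each library left out and the replicate number as a block; principal transcript lengths were added after seeing the data. The genes and lists were chosen with earlier results of these data known. The text names all 10 genes of the set, the receptors, and from each other list the 4 genes with the smallest p and those with separated groups, with Naip2, Naip5, Aim2, Il33 and Myd88 given as levels. Naip2 was added to these after its values were seen. Il36 genes were matched under their older Il1f names. Gene positions in the count table equalled those of GENCODE M21 for all 10 genes.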

Additional observations from a re-analysis of the deposited data

How the results depend on the processing

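With 14 alternatives, 0 genes of the set passed in any. Over all genes, edgeR called 0, DESeq2 35, edgeR with no filter on low counts 183, and edgeR with the replicate number as a block 1. Whether same-numbered libraries share a batch is not known here. Their deviations correlated at 0.0309, -0.0633 and 0.0185, and not every library correlated best with its own number. With 3 libraries per group, these values cannot settle it. limma-voom also called 0, with 871 genes at an unadjusted p under 0.05 against 879 by edgeR. Leaving out a library gave 0 to 5 called genes, the 5 without unloaded 1. Groups were then separated for 2 to 4 of the 9 tested genes of the set, and for 17.7% to 26.1% of all tested genes. With no filter, Il1r2 (adjusted p = 0.0088), Ptgs2, Junb, Fosb, Jun and Egr1 passed; the cause was not tested. Signs over all alternatives were followed for 42 genes of the set and the pathway lists, without Il1a and the cell type markers. Where groups did not overlap, leaving out a library could not turn the sign apart from slight rescaling. Of these 42 genes, 30 kept the sign of their fold change in all alternatives, 6 of them in the set. The others turned only with a library left out, except Il1rl1, which was also 0.01 with upper-quartile scaling. Their ranges were -0.16 to 0.01 for Casp1, -0.02 to 0.24 for Casp4, -0.10 to 0.02 for Gsdmd, -0.05 to 0.26 for Mefv, -0.03 to 0.33 for Nlrc3, -0.16 to 0.15 for Il1r1, -0.09 to 0.80 for Il1r2, -0.02 to 0.25 for Il1rap, -0.08 to 0.03 for Il1rl1, -0.31 to 0.06 for Il1rl2, -0.42 to 0.02 for Il18r1 and -0.10 to 0.06 for Il18rap. Depth limits Il1a and Il18, at 4 to 13 and 26 to 53 counts per library.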
